A study of Mus musculus with 4 samples.

Results

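Plakophilin 2 (Pkp2) and 6 genes of cell-to-cell junctions were followed in calf muscle (gastrocnemius) of mice whose muscle overexpresses PPARα, a nuclear receptor known for inducing genes of fatty acid oxidation. The genes were Pkp2, Pkp4, Jup, Dsp, Dsg2, Dsc2 and Ctnnb1, and every probe set of the Affymetrix mouse array with one of these symbols alone was taken. All 7 genes were on the array, with 21 probe sets of the 20380 that had a single gene symbol. Pkp2 was selected on its signal, which was high in the transgenic muscle in this same comparison, so its difference is given as a description. It was fitted with the other genes, but whether it passed a threshold there is no support for it. The other 6 genes were chosen as its junction partners, and the question was whether Pkp2 was higher alone or together with them.

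There were 4 arrays with total RNA from 4 samples. The 2 transgenic samples (MCK-PPARa) came from mice with muscle-specific PPARα overexpression, and the 2 controls (NTG) from their non-transgenic littermates. MCK stands for muscle creatine kinase, whose promoter is active in striated muscle, heart included. The labels used here do not state age, sex, strain or transgenic line. The series description gives 2 wild-type and 2 transgenic mice for the 4 arrays, and the array labels add only a replicate number. The p-values and errors rest on the spread between these samples only. The fit moderates each gene's spread toward that of other genes of similar level, with 7.86 total against 2 residual degrees of freedom. An SE is thus not the spread of that gene's own 4 readings, and for Pkp2 the residual SD was 0.064 beside an SE of 0.31.

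A desmosome is a spot-like junction that couples the intermediate filaments of neighbouring cells. Desmogleins and desmocollins, which are cadherins, span the membrane, plakoglobin and plakophilins, which are armadillo-repeat proteins, bind their tails, and desmoplakin links that plaque to the filaments. Desmosomal proteins are best known in skin and in the intercalated disc of the heart, where mutations in several of their genes cause arrhythmogenic cardiomyopathy. Mature skeletal muscle fibres are fused cells without intercalated discs, and plakophilins and β-catenin also have roles away from junctions.

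The values are MAS5 signals, 1 per probe set on a linear scale, and a signal has no fixed unit and cannot be set against that of another probe set. The 2% trimmed mean was 1500.6 or 1500.7 on every array, and the median signals ran from 582 to 700.3. Differences are MCK-PPARa minus NTG on the scale of log2(signal + 64.2), with limma's standard error (SE, n = 2 per group). This scale understates the difference of dim probe sets. The number of arrays limits the precision, since the smallest two-sided p of an exact permutation test of 2 arrays against 2 is 0.333. Ppara itself read 633 and 2674 for NTG, and 7969 and 15226 for the transgenic muscle. All 9 skeletal muscle markers, such as Ckm and Acta1, were bright, with no signal below 72346. The 5′ control for 18S RNA was at 2202 (NTG) and 2313 (MCK-PPARa) among the replicate 1 arrays, but at 28.9 and 44.7 among the replicate 2 arrays. The arrays thus also differed by replicate number, and some of the junction genes below differed the same way.

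Of all probe sets, 20.8% were higher on both MCK-PPARa arrays than on both NTG arrays. Pkp2, selected on this contrast, was measured by 4 probe sets, and 3 of them were higher in this way. The brightest, 1429183_at, read 559 and 537 on the NTG arrays, replicate 1 first as throughout, and 3014 and 3278 on the MCK-PPARa arrays. The groups lay far apart and the replicates close together, with a difference of 2.39 ± 0.31 (SE), or 5.24-fold. Among the 8400 genes tested, 11 had a larger difference in this direction, or 14 when dim probe sets were left out by mean signal in place of mean log2 value.

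A second Pkp2 probe set, 1449799_s_at, read 310 and 357 on the NTG arrays against 2742 and 1904 on the MCK-PPARa arrays. Its difference of 2.56 ± 0.41 (SE), fitted among all probe sets, was close to that of the brightest one. The suffix _s marks probes that can also match other transcripts. Another, 1460511_at, read 253 and 371 for NTG, and 603 and 1520 for the transgenic muscle. Here the transgenic arrays also lay above the controls but differed from each other, and the difference was 1.47 ± 0.56 (SE).

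The fourth Pkp2 probe set, 1420259_at, read 14.2 and 28.5 on the NTG arrays against 8.9 and 38.6 on the MCK-PPARa arrays. It was among the dimmest on the array, at the 0.676th percentile of mean level, and its groups overlapped, with a difference of 0.02 ± 0.37 (SE). It is annotated to the same source sequence as 1449799_s_at, so probe sets for one annotated sequence gave unlike readings. The filter on dim probe sets lay at the 40th percentile, a signal of about 423. The NTG signals of 1449799_s_at and 1460511_at were below it, so these 2 passed the filter through their transgenic arrays.

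**Figure D1:**
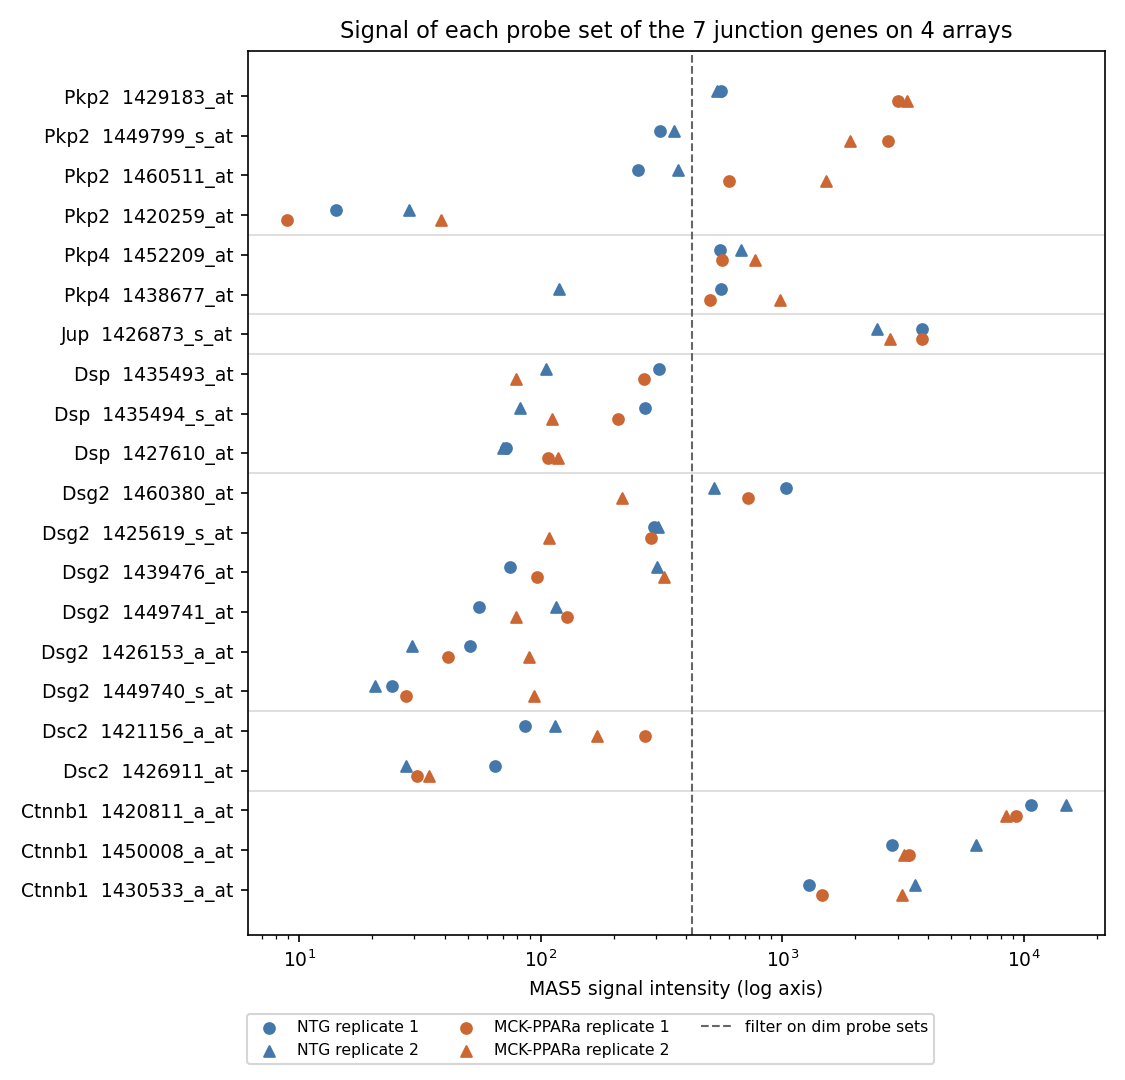
MAS5 signal intensity (horizontal log axis) of the 21 probe sets of the 7 junction genes on 4 arrays, 1 point per array, with the level of the filter on dim probe sets as a dashed line. For 3 of 4 Pkp2 probe sets the MCK-PPARa points lie to the right of both NTG points, as for 20.8% of all probe sets. The groups overlap for 12 of the 17 probe sets of the other genes.

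Pkp4, the second plakophilin-like gene, encodes an armadillo protein (p0071) of the p120-catenin group that is found at both desmosomes and adherens junctions. Its brighter probe set, 1452209_at, read 552 and 675 for NTG, and 561 and 770 for the transgenic muscle. The groups overlapped, and the difference was 0.10 ± 0.40 (SE; limma adjusted p = 0.99 over all genes), with a 95% interval from -0.83 to 1.03. The other probe set, 1438677_at, read 555 and 119 on the NTG arrays against 500.2 and 977 on the MCK-PPARa arrays. It had the largest difference of any partner probe set, 1.19 ± 0.68 (SE), but its groups overlapped and NTG replicate 2 alone stood low. The mean log2 value of the NTG arrays for 1438677_at was under the filter, so this probe set passed through its transgenic arrays. With the mean of both probe sets, this one included, the Pkp4 difference was 0.64 ± 0.47 (SE; limma adjusted p = 0.93).

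Jup encodes plakoglobin, the armadillo protein that sits in both desmosomes and adherens junctions. Its single probe set, 1426873_s_at, read 3790 and 2467 for NTG, and 3793 and 2795 for the transgenic muscle. The replicate 1 arrays of the genotypes were nearly equal and both were above the replicate 2 arrays, in the same order as 18S RNA. The difference between genotypes was 0.09 ± 0.34 (SE; limma adjusted p = 0.99), with a 95% interval from -0.70 to 0.87.

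Dsp encodes desmoplakin, the link from plaque to filaments. All 3 of its probe sets were under the filter, so the gene was not tested. The probe sets 1435493_at and 1435494_s_at, annotated to one source sequence, read 308 and 105 and then 270.1 and 82.3 in NTG, against 268 and 79.0 and then 208 and 111 in MCK-PPARa muscle. In both genotypes the replicate 1 array was the higher one, and the differences between genotypes were -0.20 ± 0.65 and -0.02 ± 0.60 (SE). The dimmest, 1427610_at, read 71.5 and 69.8 on the NTG arrays against 107 and 118 on the MCK-PPARa arrays, with groups that did not overlap and a difference of 0.39 ± 0.45 (SE). These readings were close to the offset of 64.2, so a change in desmoplakin transcript could have gone unseen at this signal. The part of the replicate number in the Jup and Dsp readings was not tested.

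Dsg2 encodes desmoglein 2, the desmoglein of heart and simple epithelia. It had 6 probe sets, of which 1 passed the filter. That one, 1460380_at, read 1035 and 521 for NTG, and 721 and 218 for the transgenic muscle. The mean log2 value of its transgenic arrays was under the filter, so it passed through its NTG arrays. The difference was -0.77 ± 0.60 (SE; limma adjusted p = 0.96), the groups overlapped, and the 95% interval ran from -2.15 to 0.61. In both genotypes the replicate 1 array was the higher one, as for Jup. Between arrays of the same number the difference was -0.49 for replicate 1 and -1.06 for replicate 2. It was -0.03 when MCK-PPARa replicate 2 was dropped and -1.51 when instead the other transgenic array was. Dropping an array also leaves the replicate numbers unequal between the groups, and the part of the replicate number was not tested. The probe set 1425619_s_at, annotated to the same source sequence, read 294 and 306 on the NTG arrays against 287 and 109 on the MCK-PPARa arrays. Both transgenic readings were lower, the first by little, and the difference was -0.56 ± 0.58 (SE). The other 4 were dim and had differences from 0.15 to 0.48, opposite in sign to the brighter pair. Of these 4, 1449740_s_at had groups that did not overlap, at 24.3 and 20.5 for NTG, and 27.7 and 93.6 for the transgenic muscle.

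Dsc2 encodes desmocollin 2, the partner cadherin of Dsg2. Both of its probe sets were under the filter. The probe set 1421156_a_at read 86.1 and 114 on the NTG arrays against 271 and 171 on the MCK-PPARa arrays. Both transgenic arrays were higher, with a difference of 0.78 ± 0.52 (SE; limma adjusted p = 0.98 over all probe sets) and a 95% interval from -0.40 to 1.96. The probe set 1426911_at read 64.8 and 27.6 for NTG, and 30.7 and 34.5 for the transgenic muscle. Its groups overlapped, and its difference of -0.17 ± 0.39 (SE) had the opposite sign.

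Ctnnb1 encodes β-catenin, the adherens junction protein and Wnt effector most closely related to plakoglobin. All 3 of its probe sets passed the filter. The brightest, 1420811_a_at, read 10658 and 14891 on the NTG arrays against 9273 and 8435 on the MCK-PPARa arrays. Both transgenic arrays were lower, with a difference of -0.51 ± 0.31 (SE; limma adjusted p = 0.96) and a 95% interval from -1.21 to 0.20. It was -0.75 without NTG replicate 1 and -0.27 without NTG replicate 2. The probe set 1450008_a_at, from the same annotated sequence, read 2851 and 6325 for NTG, and 3334 and 3188 for the transgenic muscle. There only NTG replicate 2 stood high, and the difference was -0.38 ± 0.38 (SE). The last one, 1430533_a_at, read 1286 and 3548 on the NTG arrays against 1464 and 3121 on the MCK-PPARa arrays, so that it separated the arrays by replicate number and not by genotype.

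**Figure D2:**
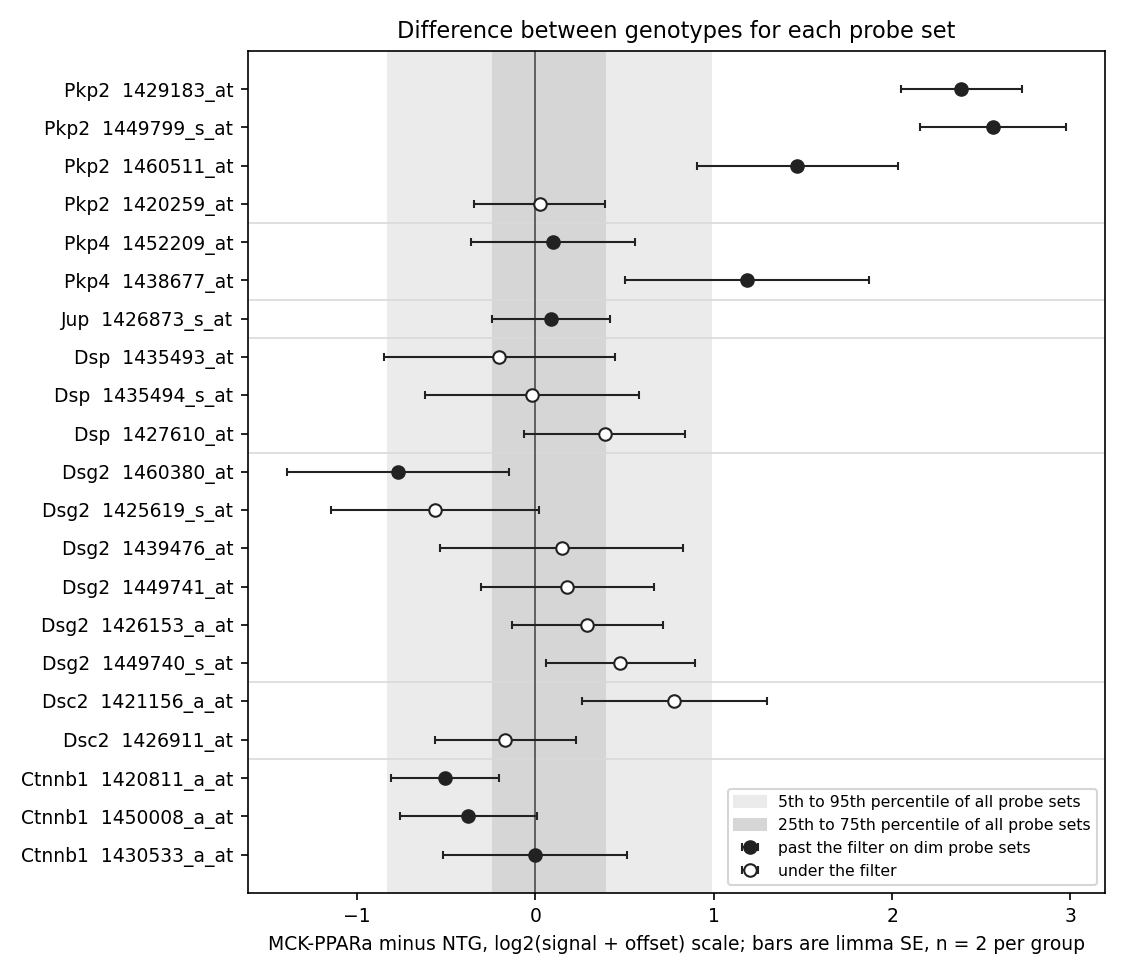
Difference between MCK-PPARa and NTG muscle on the log2(signal + offset) scale (horizontal axis) for the 21 probe sets, with limma SE bars (n = 2 per group), over bands for the 5th to 95th and 25th to 75th percentiles of all 22626 probe sets. The 3 brighter Pkp2 probe sets lie beyond the 95th percentile of 0.98, as does 1438677_at of Pkp4 at 1.19, and the other 17 lie within the outer band.

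Every partner probe set had a smaller difference than the 3 brighter Pkp2 probe sets. The gap itself was not tested, since Pkp2 was selected on this contrast. Over their 17 probe sets the differences ran from -0.77 to 1.19, with a median of 0.09, against a median of 0.08 over all 22626 probe sets, and 9 of the 17 were above 0. Groups that did not overlap were found for 3 of the 17 in the higher direction and 2 in the lower, or 29.4%, against 33.6% of all probe sets (20.8% higher and 12.8% lower). Of the 7 genes, 5 had a probe set past the filter and were tested. Of the 4 partners among them, 0 passed limma's adjusted p of 0.05, where 0.0595% of all genes did (5 of 8400), and 0 had an unadjusted p under 0.05, against 5.85% of all genes. None of the 4 partners passed when any 1 array was left out. Of all genes, 0.952% then passed when NTG replicate 1 was the array left out and 0.81% when it was NTG replicate 2. The share was 1.79% when MCK-PPARa replicate 1 was dropped and 1.07% when MCK-PPARa replicate 2 was. Those fits leave 1 array in a group and take its spread from the other group. With the replicate number as a block, 0 of the 4 partners passed, where 2.33% of all genes did. In that fit Ctnnb1, at -0.51, had an unadjusted limma p of 0.041 (adjusted p = 0.32), and the other partners tested had larger p-values. A partner that missed the threshold is not thereby shown to be equal between genotypes, and Dsp and Dsc2 were too dim for the test.

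Genes around the desmosome gave no gene that passed. Of 13 other desmosome components, among them the plakophilins Pkp1 and Pkp3 and the epidermal desmocollins, 8 were on the array and 2 passed the filter. These 2 were periplakin (Ppl), a plakin of the cornified envelope, at 0.21 ± 0.53 (SE), and corneodesmosin (Cdsn), an adhesive protein of the epidermis, at 0.01 ± 0.42. By brightest probe set, 1 of the 8, Pkp3, had groups that did not overlap, where 33.6% of all probe sets did. It read 411 and 153 for NTG, and 456 and 840.1 for the transgenic muscle. Its difference of 1.10 ± 0.61 (SE), fitted among all probe sets, was above their 95th percentile of 0.98. Pkp3 was under the filter, though not under one on mean signal. It is named after its values were seen.

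The wider lists hold 145 genes other than the 7, of which 126 were on the array and 100 were tested. None of the 100 passed limma's adjusted p of 0.05, and 7 had an unadjusted p under 0.05, or 7%, against 5.85% of all genes. Their differences ran from -1.25 to 1.25 with 50 above 0. None reached that of Pkp2, but Pkp2 was selected on this contrast, and only 11 of all 8400 genes had a larger difference. Among 17 adherens junction genes the median difference was -0.04, and the smallest p belonged to the nectins, which are adhesion receptors of the adherens junction. Nectin1 had 0.80 ± 0.43 (SE), Nectin2 0.84 ± 0.45 and the endothelial cadherin Cdh5 0.46 ± 0.31 (limma adjusted p from 0.94 to 0.96). The NTG signals of Nectin1, 332 and 404, were below the filter, which it passed through its transgenic arrays. Among 10 armadillo-repeat genes and p120 catenins the median was -0.05. The nuclear import receptor Kpna4 had -0.83 ± 0.32 (SE), the p120-related Arvcf 0.52 ± 0.42, and Kpna1 -0.42 ± 0.38.

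Genes of gap junctions and the intercalated disc, of which 16 were tested, had a median difference of -0.02. The actin-binding protein gene Xirp1 had 0.68 ± 0.40 (SE), the Z-disc protein gene Csrp3 -0.503 ± 0.31 and Popdc3, of the Popeye membrane proteins, -0.33 ± 0.32. Of 13 genes for intermediate filaments and their linkers the median was 0.04. Dystonin (Dst), a plakin like desmoplakin, read 7782 and 10439 on the NTG arrays against 5325 and 3847 on the MCK-PPARa arrays (-0.98 ± 0.32, limma adjusted p = 0.59). The desmin chaperone Cryab had 0.79 ± 0.36 and the phosphatase gene Mtm1 0.78 ± 0.49.

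At the costamere, which ties the sarcomere to the fibre membrane, 16 genes had a median difference of -0.08. Integrin-linked kinase (Ilk) read 3634 and 3657 for NTG, and 6679 and 6921 for the transgenic muscle, a difference of 0.89 ± 0.28 (SE; limma adjusted p = 0.55). The laminin receptor subunit Itga7 was likewise higher on both transgenic arrays, at 0.59 ± 0.28 (limma adjusted p = 0.895). Ankyrin 1 (Ank1) read 34047 and 13466 on the NTG arrays against 11098 and 7242 on the MCK-PPARa arrays, a difference of -1.25 ± 0.46 (limma adjusted p = 0.72). Without NTG replicate 2 the Ank1 difference was -1.92 and passed (limma adjusted p = 0.0092).

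In the Wnt pathway, where β-catenin carries the signal to the nucleus, 28 genes had a median difference of -0.01. The ligand gene Wnt4 read 2219 and 1466 for NTG, and 4930 and 3895 for the transgenic muscle. That was the largest difference above 0 in the lists, at 1.25 ± 0.33 (SE; limma adjusted p = 0.38). Axin2, a feedback inhibitor that β-catenin itself induces, had 0.95 ± 0.39 and the co-receptor gene Lrp6 -0.93 ± 0.35 (limma adjusted p = 0.81 and 0.72).

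**Figure D3:**
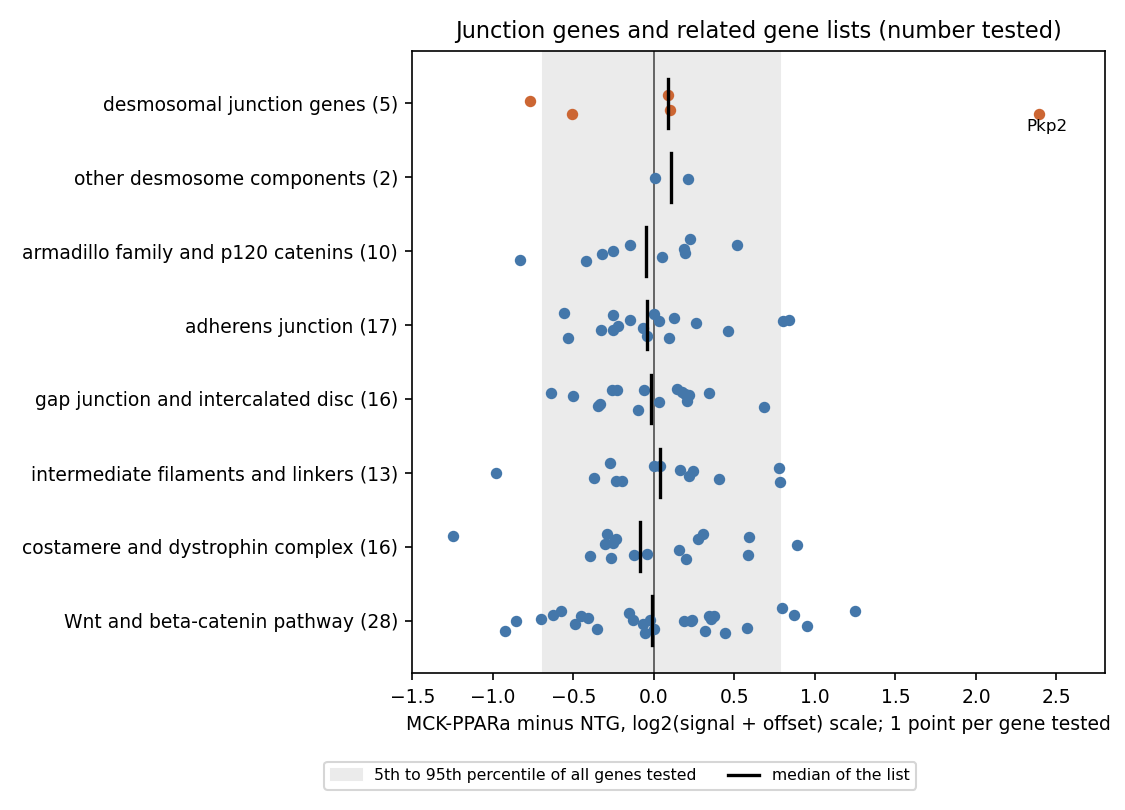
Difference between MCK-PPARa and NTG muscle on the log2(signal + offset) scale (horizontal axis), 1 point per gene tested, for the 5 desmosomal junction genes tested and 7 related lists, with list medians as bars over the 5th to 95th percentile of all 8400 genes. Pkp2, at 2.39 and selected on this contrast, lies to the right of every other point, and the list medians lie between -0.08 and 0.11.

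Bulk muscle RNA holds other cell types, and fewer cells of a type cannot be told apart from less RNA per cell. Of 10 markers of epithelium and keratinocytes, the cells richest in desmosomes, 7 were under the filter. Their summed signal was 3750 and 2848 on the NTG arrays against 2915 and 3945 on the MCK-PPARa arrays, so the groups overlapped. Such a sum is weighted toward genes with bright probe sets and is compared only between arrays. Of 8 cardiac muscle markers 6 were under the filter, Myh6 and Tnni3 included. The summed signal of the 8 was higher on both transgenic arrays, at 3093 and 2813 for NTG, and 4016 and 3387 for the transgenic muscle. The 2 tested, Myl4 and Nkx2-5, had differences of 0.16 ± 0.37 and 0.11 ± 0.49 (SE). Of the adipocyte markers, Fabp4, Adipoq and Retn were higher on both transgenic arrays, as Pkp2 was and as 20.8% of all probe sets were. The summed signal of the 6 of 8 on the array was 8185 and 7726 on the NTG arrays against 29339 and 18103 on the MCK-PPARa arrays. Fabp4 was the largest single part of each of these sums, at 4186 and 3820.5 for NTG, and 21784 and 10839 for the transgenic muscle. Lep and Cidec were under the filter and had groups that overlapped. All 4 tested were above 0, none passed limma's adjusted p of 0.05 and 3 had an unadjusted p under 0.05, against 5.85% of all genes. Fabp4, a fatty acid binding protein, had 1.93 ± 0.38 (SE), the adipokine Adipoq 1.34 ± 0.31 and Retn 0.81 ± 0.31. The lipase gene Lipe, whose groups overlapped, had 0.30 ± 0.37. None of these markers is listed at 0, and their part in the Pkp2 difference was not tested.

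Of all genes tested, Ces1d, Ilf2, Alad, Slc1a1 and Dbi had the patterns nearest to Pkp2 over the 4 arrays. Likeness was the root mean square difference of log2 values after subtracting each gene's own mean, and it ran from 0.11 for Ces1d to 0.20 for Dbi. Ces1d, a carboxylesterase, read 297 and 355 for NTG, and 1748 and 2102 for the transgenic muscle. Ilf2, an RNA-binding protein gene, read 245 and 277 on the NTG arrays against 1364 and 1463 on the MCK-PPARa arrays. For both genes the NTG signals were below the filter signal of about 423, so they passed the filter through their transgenic arrays. Slc1a1 read 339.6 and 450.8 for NTG, and 2205.5 and 2066.9 for the transgenic muscle. The mean log2 value of its NTG arrays was also under the filter. Alad acts in haem synthesis, Slc1a1 carries glutamate and Dbi binds acyl-CoA, and their differences were 2.44 ± 0.30, 2.27 ± 0.34 and 2.22 ± 0.32 (SE). No junction gene was among these 5. The partners' nearest genes were others, each member's 2 being Sertad2 and Sri for Pkp4 (0.01 and 0.02), Slc39a7 and Ryr1 for Jup (0.03 and 0.03), Gga1 and Kif1b for Dsg2 (0.03 and 0.08), and Map2k4 and Ddx3x for Ctnnb1 (0.01 and 0.02). With the filter on mean signal, Madd took the place of Dbi among the 5 nearest to Pkp2. With 4 arrays, likeness of this kind is a description only.

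**Figure D4:**
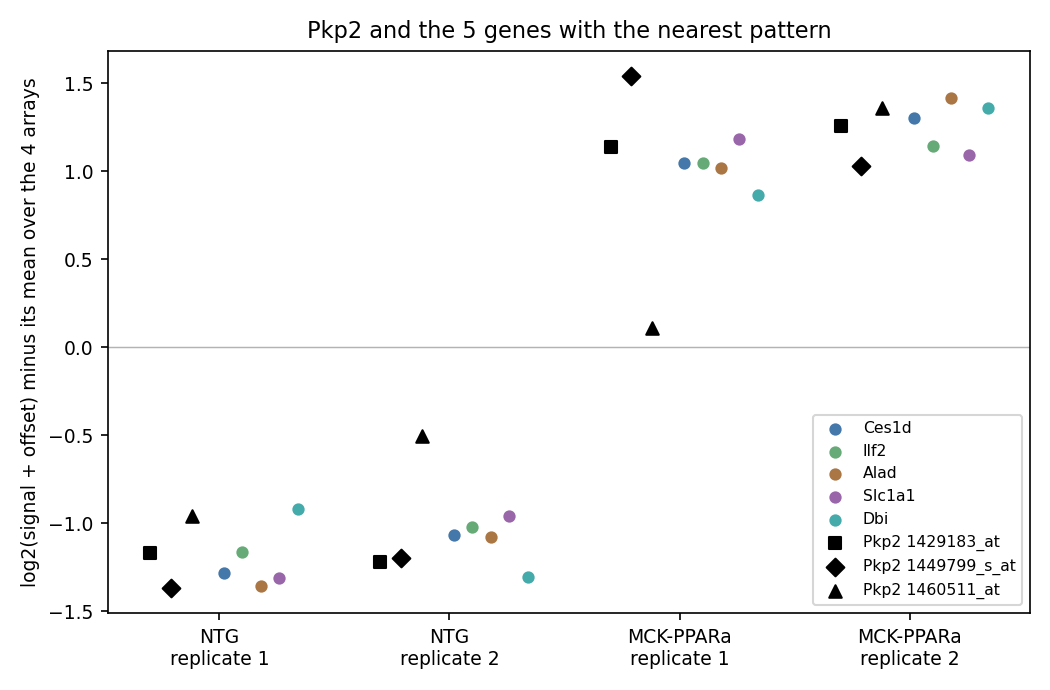
Log2(signal + offset) less its mean over the arrays (vertical axis) on each of the 4 arrays, for the 3 Pkp2 probe sets past the filter (black) and the 5 genes nearest to 1429183_at (coloured). All lie below 0 on both NTG arrays and above 0 on both MCK-PPARa arrays, the 5 genes having been chosen for their likeness to Pkp2. The probe set 1460511_at has the widest gap between its transgenic replicates.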

How the data were processed

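The authors deposited 1 table of linear signal intensity for 22690 probe sets on 4 arrays, made with MAS5 per the submitters' processing notes. For its version, settings and detection calls nothing is stated in the labels. The trimmed means show scaling to 1 target, so no further normalization was applied. Gene names came from the platform annotation, and probe sets with several symbols or none were left out of the gene fit.

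Values were taken as log2(signal + 64.2), an offset of 10% of the median. Probe sets under the 40th percentile of mean log2 value were left out and each gene was represented by its brightest one, giving 8400 genes. The stated rule, a mean over the arrays, did not say whether signals or log2 values were averaged. Mean log2 was chosen after all readings had been run on the data, because it gave the gene number of an earlier analysis of them. The others, on mean signal with the percentile over probe sets other than controls or over all rows, gave 8402 and 8414 genes and are alternatives added after seeing the data. The genotypes were contrasted with limma 3.58.1 in R 4.3.3 (lmFit, then eBayes with trend), using two-sided p-values adjusted over all genes by Benjamini-Hochberg. A second fit took all 22626 probe sets other than controls, unfiltered, and gave the values of probe sets that did not stand for their gene. The fit was tested on simulated data.

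Members and gene lists were chosen with earlier results of these data known. Named were all members, up to 3 genes by smallest p of each list, and the genes of nearest pattern, 5 for Pkp2 and 2 for each other member tested. Alternatives were other offsets, filters, normalizations and probe set rules, no variance trend, a replicate block and each array left out.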

Additional observations from a re-analysis of the deposited data

How the results depend on the processing

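The Pkp2 difference stayed above 0 in all 15 alternatives, but Pkp2 was selected on this contrast, so the kept sign is no support for it. Some alternatives, such as the replicate block, cannot move the difference itself. It was 2.51 with an offset of 1% of the median, 1.995 with 50%, 2.29 with median centring, 2.14 with the mean of its probe sets, and 2.33 to 2.45 with 1 array left out. Ctnnb1 and Dsg2 kept their sign wherever tested, but with 1 array left out their sizes ran from -0.75 to -0.27 and from -1.51 to -0.03. The sign of Jup turned in 3 of 15 and that of Pkp4 in 4 of 14. The count of genes past the threshold was 5 (4 higher, 1 lower) and became 2 with a filter at the 60th percentile, 3 with median centring (2 higher, 1 lower), 12 with the mean of probe sets, and 68 to 150 with 1 array left out. The count over the 5 junction genes tested, Pkp2 included, was 0 and became 1 with any 1 array left out and with the replicate block. That 1 was Pkp2, whose values chose it, so the change in the count is no support for it. No partner tested passed in any of the 15 alternatives. Replicate numbers are shared by the groups, but the labels do not say what they mark, and same-numbered arrays deviated together (r = 0.465 across genes, which are not independent). A replicate block let 196 genes pass, among them from the lists Wnt4 (limma adjusted p = 0.0196) and Ank1 (0.022). Filtering on mean signal, by either reading and chosen after seeing the data, left the Pkp2 difference at 2.39 and the count at 5. Under the reading over probe sets other than controls, other counts were 4 with the 60th percentile, 2 with quantile normalization, 1 with median centring, 3 without a variance trend, 16 with the mean of probe sets, 211 with the block and 72 to 150 with 1 array left out. Without a variance trend or with quantile normalization the counts by mean log2 were 5 and 4. The causes of these shifts were not tested. No detection calls were at hand, so whether dim probe sets such as those of Dsp and Dsc2 were above background is unknown.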

Other observations

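Markers of further cell types showed no list member past limma's adjusted p of 0.05. Among 8 endothelial genes, the median difference was 0.12 and Kdr, a receptor for vascular growth factor, read 1850 and 1794 for NTG, and 2836 and 4263 for the transgenic muscle (0.91 ± 0.32 (SE), limma adjusted p = 0.68). Of the lymphatic endothelial genes, 3 were tested with a median of -0.02. The 5 satellite cell markers tested had a median of -0.01, and the muscle cadherin Cdh15, one of them, read 1872 and 1689 on the NTG arrays against 1846 and 1962 on the MCK-PPARa arrays. In the fibroblast and matrix list (7 tested, median 0.27), Pdgfra read 1146 and 2011 for NTG, and 803 and 762 for the transgenic muscle (-0.90 ± 0.37 (SE), limma adjusted p = 0.81). Macrophage (4 tested), nerve and Schwann cell (2 tested) and smooth muscle (5 tested) markers had medians of 0.24, 0.05 and 0.00 in that order.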
